A study of Mus musculus with 18 samples.

Results

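The genes described here are the 7 ligands of the epidermal growth factor (EGF) family (*Egf*, *Ereg*, *Areg*, *Hbegf*, *Tgfa*, *Btc* and *Epgn*), their receptor *Egfr*, and 2 inhibitors of that receptor, *Errfi1* and *Lrig1*. These 10 genes were chosen by name, with no measured value in the rule, from the 47729 genes of a bulk RNA-Seq count table of mouse colon. Of the 10, 9 passed the filter on low counts that left 16937 genes for testing, and *Epgn* did not. The table covered 18 libraries in 6 groups of 3. WT mice and mice lacking *Cldn2* in the whole body (*Cldn2*KO mice, which lack the tight junction protein claudin-2) were each sampled untreated (control), while healing after colitis that dextran sulfate sodium had induced (DSS recovery), and after azoxymethane with DSS (AOM/DSS), which gives rise to colon tumors on a background of colitis. The study's methods name C57BL/6 mice with littermate WT controls, and no age is given in the sources used here. The protocol text, which is the same for all samples, gives AOM at 10 mg/kg in a single injection with 3 cycles of 2.5% DSS, and the DSS amount of the recovery groups was not given separately. No label states that the 3 libraries of a group came from separate animals, so p-values measure the spread between these libraries. In WT control, WT recovery, *Cldn2*KO recovery and *Cldn2*KO AOM/DSS the libraries of a group differed widely in *Hoxb13* or *Xist*, so there they were not all repeats of 1 sample.

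EGF family ligands are made as membrane-bound precursors that proteases of the ADAM family cut free, and the freed ligand makes EGFR pair up and phosphorylate itself, which switches on the RAS-ERK and PI3K-AKT cascades. In the gut this signaling drives epithelial proliferation and wound closure, and its own output restrains it. *Errfi1* encodes MIG6, a protein that blocks the EGFR kinase and is induced by ERK, while *Lrig1* encodes a membrane protein of epithelial stem cells that promotes degradation of EGFR.

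*Ereg*, *Areg*, *Btc* and *Epgn* lay side by side on chromosome 5, between 91027464 and 91402994 in GRCm38. The other members lay apart, *Egf* at chr3:129677565-129755316, *Tgfa* at chr6:86195223-86275719, *Egfr* at chr11:16752203-16918158, *Errfi1* at chr4:150853919-150868892 and *Lrig1* at chr6:94604529-94700158.

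RefSeq promoter windows of 300 bases (GRCm38.p6, 250 before the start site to 50 after) were held for 8 of the 10 genes, and *Ereg* and *Hbegf* had no entry. In these windows 4 motifs were searched on both strands: the CRE TGACGTCA, bound by CREB and ATF factors, the AP-1 site TGANTCA, the TATA box TATAAA and the GC box GGGCGG. *Areg* and *Errfi1* were the only members whose windows held the CRE, which 1.79% of all 32851 promoters held. They are shown because these are also the members, with *Ereg* and *Hbegf*, whose levels ranged most widely over the libraries, by 18.5-fold for *Areg*, 7.66-fold for *Errfi1*, 31.1-fold for *Ereg* and 9.91-fold for *Hbegf*. *Btc* and *Egf* came next, at 6.47-fold and 6.19-fold, and a link between motif and range was not tested. Capitals mark the motif matches, with a GC box on the other strand reading CCGCCC.
Areg, chr5:91139349-91139648, plus strand: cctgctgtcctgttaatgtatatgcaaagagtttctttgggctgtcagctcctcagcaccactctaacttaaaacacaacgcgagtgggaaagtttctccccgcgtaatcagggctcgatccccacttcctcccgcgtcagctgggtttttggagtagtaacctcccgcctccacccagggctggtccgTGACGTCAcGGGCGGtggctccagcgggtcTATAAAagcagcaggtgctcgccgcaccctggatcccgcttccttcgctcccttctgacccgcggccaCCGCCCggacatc
Errfi1, chr4:150854820-150855119, plus strand: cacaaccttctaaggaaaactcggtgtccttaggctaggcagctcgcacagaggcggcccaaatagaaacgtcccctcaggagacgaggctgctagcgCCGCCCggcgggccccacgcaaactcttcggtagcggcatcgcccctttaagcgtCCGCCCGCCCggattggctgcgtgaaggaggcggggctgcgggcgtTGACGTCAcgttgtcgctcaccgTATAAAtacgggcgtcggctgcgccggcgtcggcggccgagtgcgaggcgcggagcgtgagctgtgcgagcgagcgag
The CRE began 61 bases before the start site in *Areg* and 51 bases before it in *Errfi1*, each followed by a TATA box, which began 31 and 28 bases before the start. TATA boxes were present in 13.6% of all promoters and GC boxes in 35.7%. No AP-1 site, present in 7.81% of all promoters, was found in the windows of these members, and the windows of *Egf* and *Btc* held none of the motifs, as did a second *Errfi1* window at chr4:150853546-150853845. A match describes these letters only.

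Libraries held 17.6 to 27.4 M counted reads, with a median of 19.6 M. *Cldn2* itself stood at 44.5 to 504 counts per M reads (CPM) in the 9 WT libraries and at 0.0555 to 0.557 CPM in the 9 *Cldn2*KO libraries. The study names distal colon for the RNA-Seq of mice in recovery and only colon for the RNA of AOM/DSS mice. The region was checked with 6 Hox genes of the distal colon. Summed over these, the 6 recovery libraries held 1.77 to 3.59 CPM and WT control replicate 2 held 11 CPM, whereas the other 11 libraries held 521 to 892 CPM. The values of the 6 recovery libraries go against the stated region, and WT control replicate 2 was low in these genes as well. Recovery and colon region cannot be told apart except through that single control library. *Xist*, the RNA of the inactive X chromosome, was at 865 to 1742 CPM in 6 libraries, namely replicates 2 and 3 of WT recovery, *Cldn2*KO recovery and *Cldn2*KO AOM/DSS, and at 1.16 CPM or less in the other 12. All controls and all WT AOM/DSS libraries were among those 12. *Xist* was thus unbalanced between recovery and control, among other comparisons, and between the genotypes in AOM/DSS. The study's methods name mice matched for sex. In bulk RNA of this kind, fewer cells of a type and less RNA per cell cannot be told apart.

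*Egf*, which encodes the founding ligand of the family, was the 1 member that edgeR called higher in recovery in both genotypes. Its level, in CPM scaled by trimmed means (TMM), was 1.26, 1.31 and 1.48 in the WT control libraries and 5.05, 6.10 and 5.38 in the WT recovery libraries. In *Cldn2*KO mice it was 2.66, 2.22 and 1.29 in controls and 7.34, 7.79 and 3.64 in recovery. All 6 recovery libraries lay above all 6 controls. *Egf* rose 4.07-fold in WT mice (log2 2.02 ± 0.35 SE, adjusted p = 0.0018) and 3.03-fold in *Cldn2*KO mice (log2 1.60 ± 0.34, adjusted p = 0.0049) by edgeR's quasi-likelihood test with Benjamini-Hochberg adjustment over all genes tested. The genotypes' increases differed by log2 -0.42 ± 0.48 (adjusted p = 0.69), a difference too imprecise to call the increases alike. Among libraries low in the distal Hox genes, WT control replicate 2 had 1.31 CPM of *Egf* and the WT recovery libraries 5.05 to 6.10 CPM, and the WT call remained under all 15 alternatives (adjusted p 1.15e-06 to 0.037). With a covariate for *Hoxb13* the *Cldn2*KO value was 1.66 with adjusted p = 0.30. Few reads stood behind *Egf*, 20 to 168 per library. Kidney makes *Egf* in quantity, and 4 kidney markers summed to 0.473 CPM at most in any library. Markers of Brunner gland and stomach (5 genes) summed to 0.0548 to 0.589 CPM in the 6 controls and 0.803 to 6.22 CPM in the 6 recovery libraries, and their part in the *Egf* increase was not tested.

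In the AOM/DSS groups *Egf* sat between the control and recovery levels. WT libraries held 3.49, 3.55 and 2.60 CPM and *Cldn2*KO libraries 2.0, 2.89 and 3.91 CPM. The WT values lay above all WT controls and below all WT recovery libraries, while the *Cldn2*KO values overlapped both of their own groups. *Egf* rose 2.38-fold over control in WT mice (log2 1.25 ± 0.35, adjusted p = 0.037), a call lost on leaving out any single library of the pair (adjusted p 0.056 to 0.11). In *Cldn2*KO mice the difference from control was log2 0.51 ± 0.34 (adjusted p = 0.50), and *Egf* was lower than in recovery by log2 -1.09 ± 0.34 (adjusted p = 0.036). This last call was lost without *Cldn2*KO recovery replicate 1 or 2 and without *Cldn2*KO AOM/DSS replicate 1 or 2 (adjusted p 0.088 to 0.13), and also with no filter (adjusted p = 0.070), with only those groups in the fit (adjusted p = 0.091) and with the *Hoxb13* covariate (adjusted p = 0.735).

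**Figure D1:**
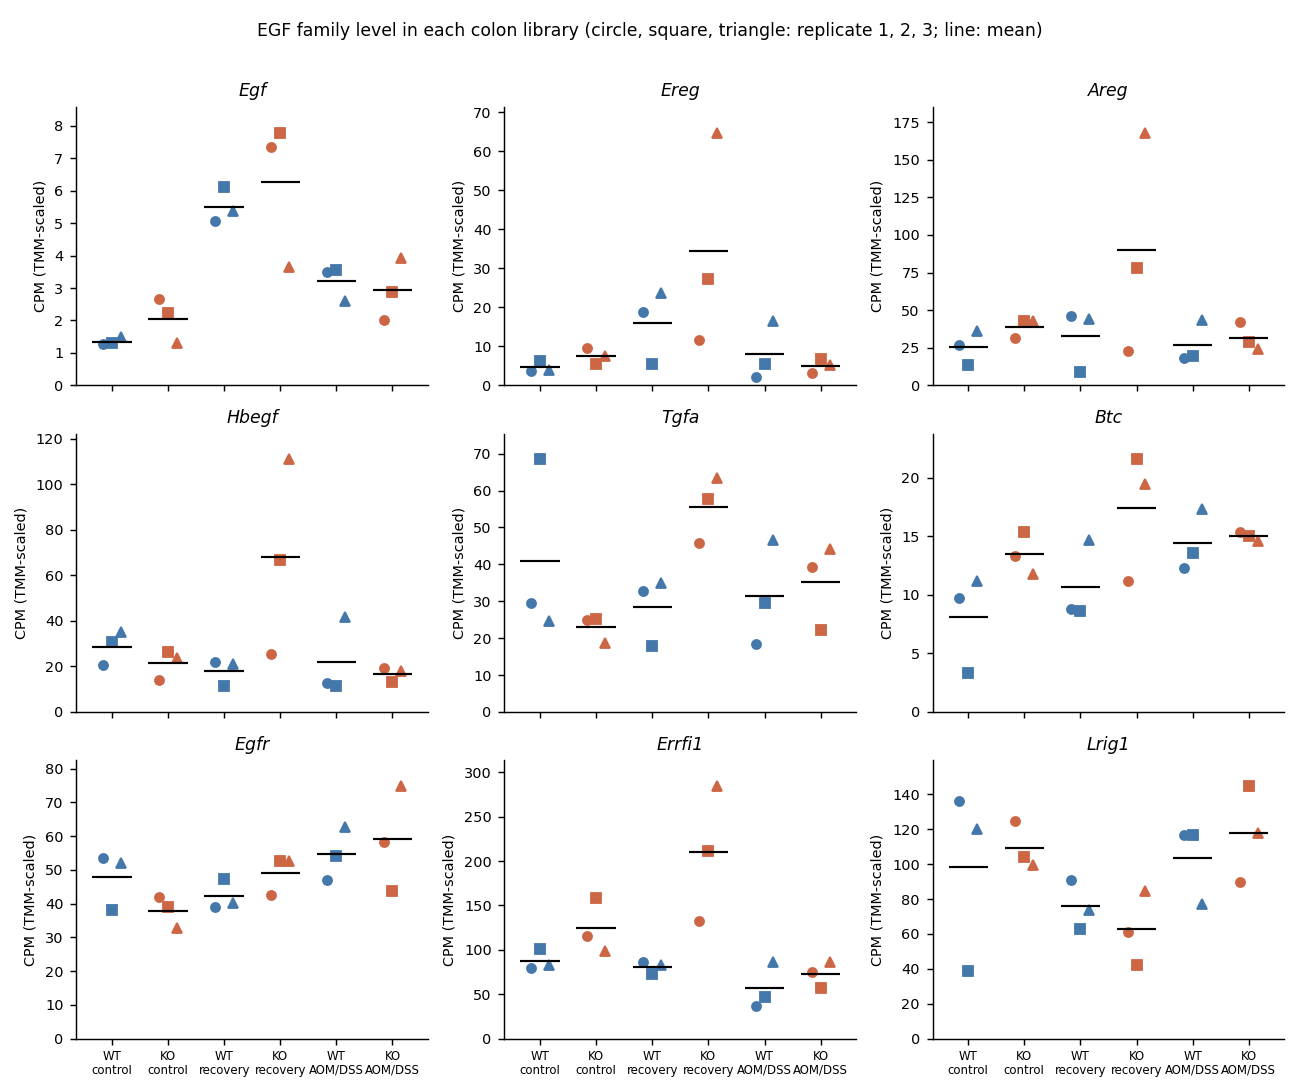
Level of each tested gene (vertical axis, TMM-scaled CPM, starting at 0) in the 18 libraries, by group (horizontal axis). Blue marks WT and orange *Cldn2*KO (KO), symbols mark the replicate and lines the group mean. *Egf* is higher in all 6 recovery libraries than in the 6 controls, while *Ereg*, *Areg*, *Hbegf* and *Errfi1* peak in *Cldn2*KO recovery replicate 3.

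*Ereg* encodes epiregulin, a ligand of EGFR and ERBB4. It was at 3.66, 6.35 and 3.84 CPM in WT controls and at 9.47, 5.60 and 7.64 CPM in *Cldn2*KO controls. In recovery the WT libraries held 18.8, 5.45 and 23.7 CPM, and the *Cldn2*KO libraries held 11.7, 27.2 and 64.8 CPM. WT recovery replicate 2 stayed within the control range, whereas every *Cldn2*KO recovery library exceeded its controls. *Ereg* rose 4.56-fold in *Cldn2*KO recovery (log2 2.19 ± 0.71, adjusted p = 0.043). That call was lost with a covariate for *Hoxb13* (log2 1.43, adjusted p = 0.71) or *Xist* (log2 1.55, adjusted p = 0.26), with no filter (adjusted p = 0.11) and with upper-quartile scaling (adjusted p = 0.051). In WT recovery the value was log2 1.80 ± 0.71 (adjusted p = 0.082), and DESeq2 and limma-voom called it (adjusted p = 0.029 and 0.00095). Leaving out *Cldn2*KO recovery replicate 3, the highest library, gave log2 1.36 in *Cldn2*KO mice (adjusted p = 0.20), and the call held only when replicate 1 of that group was the library removed (adjusted p = 0.025). The AOM/DSS libraries held 2.08, 5.47 and 16.5 CPM in WT and 3.14, 6.78 and 5.21 CPM in *Cldn2*KO mice. *Ereg* fell from recovery to AOM/DSS in *Cldn2*KO mice by 2.77 ± 0.73 on the log2 scale (adjusted p = 0.018), and WT gave log2 -1.0 ± 0.69 (adjusted p = 0.31). Limma-voom gave log2 -2.01 in WT mice and called it (adjusted p = 0.010). The *Cldn2*KO value was log2 -1.94 without *Cldn2*KO recovery replicate 3 and was then not called (adjusted p = 0.071), nor was it without *Cldn2*KO AOM/DSS replicate 1 or 3 (adjusted p = 0.073 and 0.062), with no filter (adjusted p = 0.052) or with the *Hoxb13* covariate (adjusted p = 0.79).

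*Areg*, the gene of amphiregulin, a ligand released in epithelial repair, was called in no comparison by DESeq2, limma-voom or edgeR's fit of all libraries. Control libraries held 26.7, 13.3 and 35.9 CPM in WT and 31.4, 42.7 and 42.5 CPM in *Cldn2*KO mice. WT recovery libraries held 46.0, 9.04 and 43.9 CPM, and *Cldn2*KO recovery libraries 23.1, 78.3 and 168 CPM. Within *Cldn2*KO recovery the highest library was thus far above the lowest, which itself lay below all 3 of its controls. The group ranges overlapped, and *Cldn2*KO against WT in recovery gave log2 1.44 ± 0.65 (adjusted p = 0.23), and log2 0.62 without *Cldn2*KO recovery replicate 3 (adjusted p = 0.67). AOM/DSS libraries held 18, 19.2 and 43.7 CPM in WT and 41.8, 28.7 and 24.2 CPM in *Cldn2*KO mice. From recovery to AOM/DSS, *Areg* in *Cldn2*KO mice gave log2 -1.51 ± 0.65 (adjusted p = 0.12). Without *Cldn2*KO recovery replicate 1, edgeR called it lower (log2 -1.96, adjusted p = 0.048).

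*Hbegf*, on chromosome 18 at 36504929 to 36515805, encodes heparin-binding EGF-like growth factor, which is quickly induced in injured epithelium. It was at 20.5, 30.6 and 35.0 CPM in WT controls and 14.1, 26.4 and 23.8 CPM in *Cldn2*KO controls. WT recovery libraries held 22.1, 11.5 and 20.9 CPM, against 25.6, 66.9 and 111 CPM in *Cldn2*KO recovery. Each *Cldn2*KO recovery library was above each WT recovery library, the lowest by a narrow margin, and that lowest one lay within the range of its own controls. *Hbegf* rose 3.16-fold in *Cldn2*KO recovery (log2 1.66 ± 0.53, adjusted p = 0.038), with log2 -0.65 ± 0.52 in WT mice (adjusted p = 0.39). The *Cldn2*KO call was lost with a covariate for *Hoxb13* (log2 1.52, adjusted p = 0.56) or *Xist* (log2 1.47, adjusted p = 0.17), with no filter (adjusted p = 0.099) and with only those groups in the fit (adjusted p = 0.069). The difference between these responses was log2 2.31 ± 0.74 with adjusted p = 0.13 by edgeR, and DESeq2 and limma-voom called it (adjusted p = 0.032 and 0.021). Directly between the genotypes in recovery, *Hbegf* differed by log2 1.89 ± 0.53 (adjusted p = 0.076), called by DESeq2 (adjusted p = 0.0086) and limma-voom (adjusted p = 0.030). Leaving out *Cldn2*KO recovery replicate 3 reduced the recovery response to log2 1.11 (adjusted p = 0.17), and leaving out any other library of the pair except *Cldn2*KO recovery replicate 1 also ended that call (adjusted p 0.068 to 0.13). AOM/DSS libraries held 12.7, 11.2 and 41.8 CPM in WT and 19.4, 13.1 and 17.9 CPM in *Cldn2*KO mice. From recovery to AOM/DSS, *Hbegf* fell by 2.01 ± 0.53 on the log2 scale in *Cldn2*KO mice (adjusted p = 0.019), a call that was lost without *Cldn2*KO recovery replicate 3 (log2 -1.46) or any *Cldn2*KO AOM/DSS library (adjusted p 0.051 to 0.072), with no filter (adjusted p = 0.056) and with the *Hoxb13* covariate (adjusted p = 0.68).

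*Tgfa*, which encodes transforming growth factor alpha, rose in *Cldn2*KO recovery as well. Controls held 29.5, 68.5 and 24.7 CPM in WT and 24.8, 25.2 and 18.8 CPM in *Cldn2*KO mice. Recovery libraries held 32.9, 17.9 and 34.9 CPM in WT and 45.8, 57.6 and 63.5 CPM in *Cldn2*KO mice. WT control replicate 2, the control low in distal Hox genes, was the highest library of all. The *Cldn2*KO recovery libraries stood apart from both WT recovery and their own controls, with a 2.42-fold increase over the latter (log2 1.28 ± 0.40, adjusted p = 0.037). The call was lost with a covariate for *Xist* (log2 1.32, adjusted p = 0.093) and with no filter (adjusted p = 0.071), and without any library of the pair except *Cldn2*KO recovery replicate 1 (adjusted p 0.077 to 0.13). With a covariate for *Hoxb13* that value was log2 -0.06 (adjusted p = 0.98), a fit in which WT control replicate 2 alone links region to the controls. Against WT recovery, *Tgfa* in *Cldn2*KO mice gave log2 0.96 ± 0.40 (adjusted p = 0.20). AOM/DSS libraries held 18.3, 29.5 and 46.7 CPM in WT and 39.4, 22.2 and 44.2 CPM in *Cldn2*KO mice, within the range of the WT recovery and control libraries.

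*Btc*, the gene of betacellulin, a ligand of EGFR and ERBB4, was called in no comparison by DESeq2, limma-voom or edgeR without a covariate. Its levels were 9.75, 3.34 and 11.2 CPM in WT controls, 13.3, 15.4 and 11.8 CPM in *Cldn2*KO controls, 8.79, 8.61 and 14.7 CPM in WT recovery and 11.2, 21.6 and 19.5 CPM in *Cldn2*KO recovery. The *Cldn2*KO controls lay above the WT controls (log2 0.73 ± 0.35, adjusted p = 0.40). The covariate for *Hoxb13* moved the recovery value of *Btc* from log2 0.39 to 1.68 in WT mice, where it was then called (adjusted p = 0.025), and from log2 0.37 to 2.02 in *Cldn2*KO mice (adjusted p = 0.074). AOM/DSS libraries were close together, at 12.3, 13.6 and 17.3 CPM in WT and 15.4, 15 and 14.6 CPM in *Cldn2*KO mice. *Epgn*, the gene of epigen, had 0 to 16 reads per library and at most 0.787 CPM, so that it did not pass the filter. With no filter it was called in none of the 11 comparisons (adjusted p 0.53 to 1). Its highest values were again those of *Cldn2*KO recovery replicate 3 (0.787 CPM) and WT AOM/DSS replicate 3 (0.709 CPM).

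To set the ligands beside each other, levels were divided by exon length (RPKM, reads per kb and M reads), and each ligand was taken as a share of the 7 summed. *Areg* had the largest share in 17 of 18 libraries, with a median of 57.1%, and *Hbegf* had the largest in WT control replicate 2, at 34.8% against 29.5% for *Areg*. Median shares were 20.1% for *Hbegf*, 9.85% for *Tgfa*, 5.70% for *Btc*, 4.39% for *Ereg*, 0.591% for *Egf* and 0.223% for *Epgn*. *Egf* was therefore a small part of the ligand mRNA in each library, 0.15% to 2.85%, or 0.344% to 5.83% when the longest coding transcript replaced the merged exon length, a choice made after seeing the data. *Ereg* had a larger share in every recovery library (5.80% to 9.58%) than in any control library (1.79% to 5.58%), in both genotypes. The summed ligand level was 38.4, 37.0 and 51.9 RPKM in WT controls and 41.1, 55.3 and 52.6 RPKM in *Cldn2*KO controls. It was 59.3, 19 and 59.8 RPKM in WT recovery and 42.8, 114 and 215 RPKM in *Cldn2*KO recovery, so that WT recovery replicate 2 was the lowest of all libraries and *Cldn2*KO recovery replicates 2 and 3 were the highest. The sums in AOM/DSS ran from 26.6 to 69.2 RPKM.

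**Figure D2:**
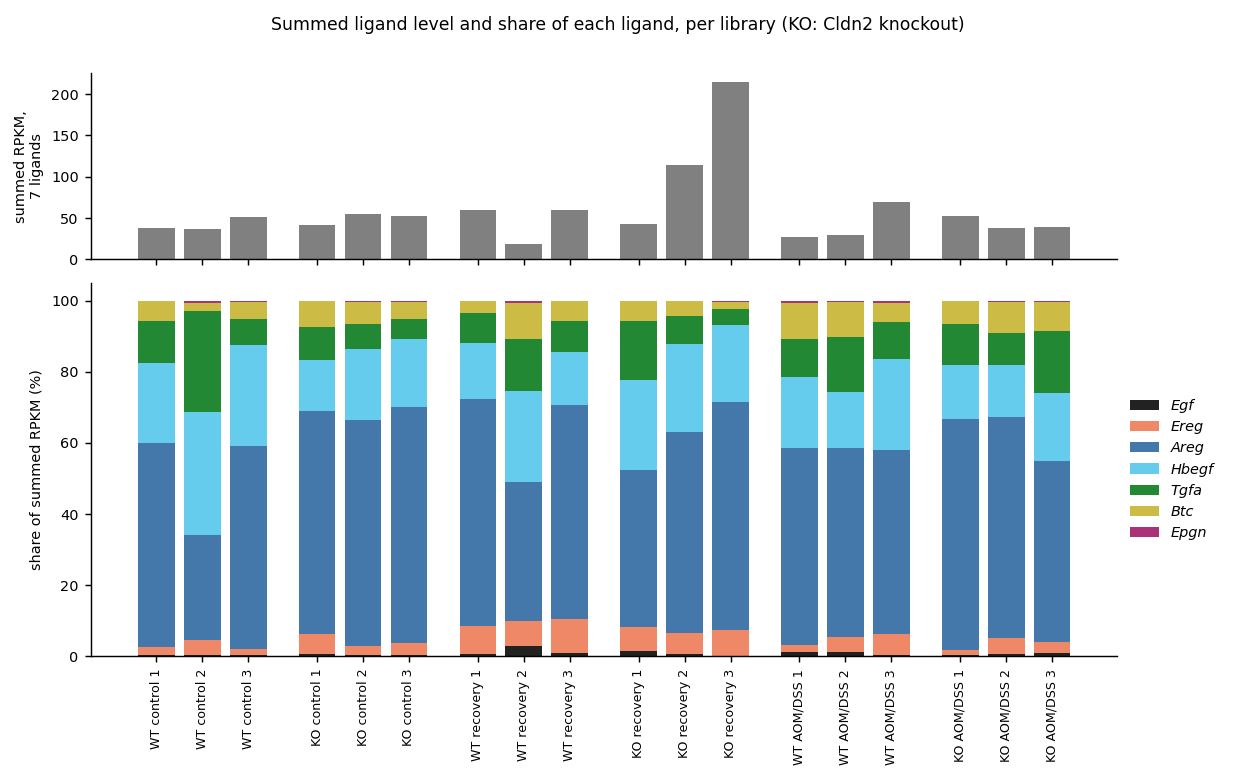
Summed level of the 7 ligands (top, RPKM) and share of each ligand in that sum (bottom, percent) in each library (horizontal axis, KO for *Cldn2*KO). *Areg* has the largest share in 17 of 18 libraries, and the sum is highest in *Cldn2*KO recovery replicates 3 (215 RPKM) and 2 (114 RPKM).

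*Egfr*, the receptor, varied least of all members, by 2.29-fold between its lowest and highest library. WT libraries held 53.6, 38.0 and 52.0 CPM in controls, 39.0, 47.3 and 40.2 CPM in recovery and 47.0, 54.0 and 62.6 CPM in AOM/DSS. *Cldn2*KO libraries held 41.9, 39.1 and 32.7 CPM in controls, 42.4, 52.5 and 52.6 CPM in recovery and 58.3, 43.8 and 74.9 CPM in AOM/DSS. In *Cldn2*KO mice the AOM/DSS libraries lay above the controls in every case, with log2 0.64 ± 0.19 (adjusted p = 0.16). No comparison of *Egfr* passed the threshold by edgeR's fit of all libraries. Without *Cldn2*KO AOM/DSS replicate 2, edgeR called AOM/DSS against control in *Cldn2*KO mice (log2 0.84, adjusted p = 0.046). Limma-voom called 4 comparisons (*Cldn2*KO against WT in controls, log2 -0.39, recovery in WT mice, log2 -0.37, AOM/DSS in *Cldn2*KO mice, log2 0.65, and the difference between the responses to recovery, log2 0.70).

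*Errfi1* was higher in *Cldn2*KO than in WT recovery. Its levels were 86.0, 73.2 and 82.5 CPM in WT recovery against 133, 212 and 285 CPM in *Cldn2*KO recovery. Controls held 79.9, 101 and 82.6 CPM in WT and 116, 158 and 99.0 CPM in *Cldn2*KO mice. WT recovery libraries thus stayed at the WT control level, *Cldn2*KO recovery libraries exceeded all of them, and *Cldn2*KO recovery replicate 1 lay within its own controls. The difference between genotypes in recovery was 2.61-fold (log2 1.38 ± 0.30, adjusted p = 0.042). This call was lost without *Cldn2*KO recovery replicate 2 or 3 and without any of the WT recovery libraries (adjusted p 0.051 to 0.20). It was also lost with a covariate for *Xist* (adjusted p = 0.069), with no filter (adjusted p = 0.06) or with only those 2 groups in the fit (adjusted p = 0.15). Each of these gave log2 1.1 or more. In the libraries low in *Xist*, replicate 1 of each group, *Errfi1* was 86.0 CPM in WT and 133 CPM in *Cldn2*KO mice. The *Cldn2*KO response to recovery was log2 0.75 ± 0.30 (adjusted p = 0.089) against log2 -0.12 ± 0.30 in WT mice (adjusted p = 0.81). The former was called by limma-voom (log2 0.70, adjusted p = 0.016) and without *Cldn2*KO recovery replicate 1 (log2 1.0, adjusted p = 0.035), and the difference of the responses was log2 0.88 ± 0.42 (adjusted p = 0.28). AOM/DSS libraries held 37.2, 47.1 and 86.0 CPM in WT and 75.5, 57.5 and 86.1 CPM in *Cldn2*KO mice. Against control, WT AOM/DSS gave log2 -0.63 (adjusted p = 0.17), which limma-voom called (log2 -0.80, adjusted p = 0.016). *Cldn2*KO AOM/DSS gave log2 -0.77 ± 0.30 (adjusted p = 0.24), with every library below every control, and limma-voom called it (log2 -0.69, adjusted p = 0.0225). From recovery to AOM/DSS, WT gave log2 -0.51 ± 0.30 (adjusted p = 0.23). Limma-voom called that (log2 -0.81, adjusted p = 0.0066), as did edgeR without WT AOM/DSS replicate 3 (log2 -0.92, adjusted p = 0.042). Every *Cldn2*KO AOM/DSS library lay below every *Cldn2*KO recovery library, and *Errfi1* fell by 1.52 ± 0.30 on the log2 scale (adjusted p = 0.0043), called under 14 of 15 alternatives, with the *Hoxb13* covariate as the exception (adjusted p = 0.58).

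*Lrig1* changed in no comparison by edgeR's fit of all libraries. WT libraries held 136, 39.0 and 120 CPM in controls, 91.1, 63.0 and 73.7 CPM in recovery and 117, 117 and 76.9 CPM in AOM/DSS. *Cldn2*KO libraries held 125, 104 and 99.5 CPM in controls, 61.2, 41.9 and 84.8 CPM in recovery and 90, 145 and 118 CPM in AOM/DSS. The *Cldn2*KO recovery libraries lay below all their controls (log2 -0.80 ± 0.36, adjusted p = 0.14), a difference that edgeR called with only those groups in the fit (log2 -0.82, adjusted p = 0.036) and that limma-voom called (log2 -1.12, adjusted p = 0.0021), as it did the one in WT mice (log2 -0.63, adjusted p = 0.021). WT control replicate 2 had the lowest value of all, below the WT recovery libraries. Without that library *Lrig1* was called lower in WT recovery (log2 -0.77, adjusted p = 0.043), and with a covariate for *Hoxb13* the direction turned (log2 0.96 in WT and 0.91 in *Cldn2*KO mice, adjusted p = 0.11 and 0.41). In *Cldn2*KO mice every AOM/DSS library lay above every recovery library (log2 0.91, adjusted p = 0.096), a difference called by limma-voom (log2 1.11, adjusted p = 0.0072) and with only those groups in the fit (adjusted p = 0.047).

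Counted over the 9 tested members, recovery raised 1 member (*Egf*) in WT mice, where 10% of all genes tested rose, and 4 (*Egf*, *Ereg*, *Hbegf* and *Tgfa*) in *Cldn2*KO mice, where 9.43% rose. By edgeR's fit of all libraries no member fell in either, where 12.2% and 10% of all genes fell. Beyond edgeR's calls, limma-voom called *Lrig1* lower in both genotypes, *Egfr* lower and *Ereg* higher in WT mice, and *Errfi1* higher in *Cldn2*KO mice. It called 47.7% of all genes in WT and 33.8% in *Cldn2*KO recovery. DESeq2 also called *Ereg* higher in WT recovery, where it called 27.1% of all genes. The genotypes' *Ereg* responses differed by log2 0.39 ± 0.98 (edgeR adjusted p = 0.87). The median log2 change of the members was -0.12 in WT and 1.21 in *Cldn2*KO recovery, beside -0.04 and 0.00 over all genes tested. Both genotypes have their own controls, so these counts share no library. In recovery, *Errfi1* was the 1 member higher in *Cldn2*KO mice, against 0.549% of all genes, and 3 members (*Hbegf*, *Tgfa* and *Errfi1*) had *Cldn2*KO libraries wholly above WT libraries, against 12.3% of all genes. The members' median in that comparison was log2 0.96, beside 0.00 over all genes. AOM/DSS raised 1 member (*Egf*) in WT mice, against 3.81% of all genes, and none in *Cldn2*KO mice, where 0.195% of all genes were called and 2 members had an unadjusted p under 0.05, as 15.2% of all genes did. Limma-voom called 2 members there (*Errfi1* and *Egfr*), against 18.1% of all genes, and DESeq2 none. From recovery to AOM/DSS, 4 members (*Egf*, *Ereg*, *Hbegf* and *Errfi1*) fell in *Cldn2*KO mice, against 8.66% of all genes, while none rose by edgeR and limma-voom called *Lrig1* higher, and none was called in WT mice, where 24.3% of all genes were called and 1 member had an unadjusted p under 0.05, as 37.9% of all genes did. Limma-voom called 2 members in WT mice (*Errfi1* and *Ereg*), against 35.7% of all genes, and DESeq2 none. This comparison shares the recovery libraries with the one against controls.

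**Figure D3:**
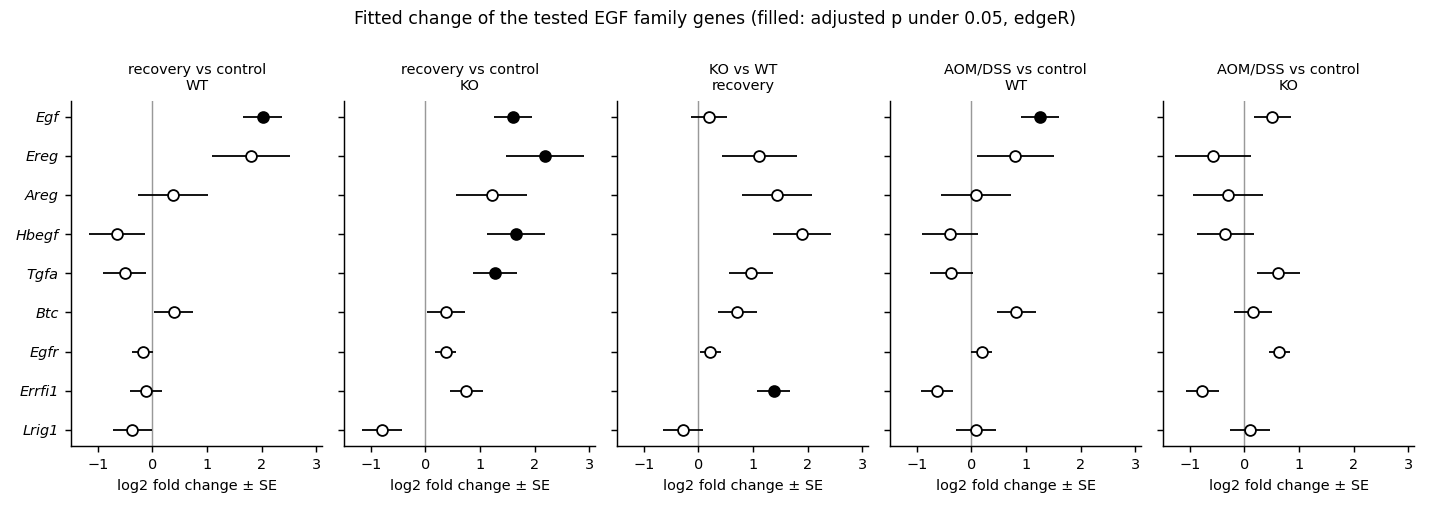
Fitted log2 fold change (horizontal axis) of the 9 tested members in 5 comparisons, with bars of 1 SE. Filled circles passed an adjusted p of 0.05 by edgeR. *Egf* is filled in recovery of both genotypes, and *Ereg*, *Hbegf* and *Tgfa* in *Cldn2*KO recovery, though edgeR called the difference between the genotypes' responses for none of them.

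Between the genotypes no member was called by edgeR in controls, where 1.17% of all genes were called, or in AOM/DSS, where 0.0059% were called. No member had an unadjusted p under 0.05 in either, as 13.1% and 5.6% of all genes did. Limma-voom called 2 in controls, *Errfi1* (log2 0.59) and *Egfr* (log2 -0.39), against 14.9% of all genes, and DESeq2 called none. The difference between genotypes in the response to recovery was called for none by edgeR, against 0.13% of all genes, with 2 members at an unadjusted p under 0.05, as 18.5% of all genes were. DESeq2 called *Hbegf* and *Tgfa* there, against 5.18% of all genes, and limma-voom *Hbegf* and *Egfr*, against 10.4%. In the response to AOM/DSS none was called by edgeR, against 0.0118% of all genes, or by DESeq2 or limma-voom, and none had an unadjusted p under 0.05, as 8.44% of all genes did.

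The *Cldn2*KO recovery libraries differed widely among themselves. Replicate 1 was the lowest and replicate 3 the highest for *Ereg*, *Areg*, *Hbegf*, *Tgfa* and *Errfi1*, whereas *Egf* was lowest in replicate 3. Over all 18 libraries the log levels of *Hbegf* and *Errfi1* correlated with a Pearson r of 0.81, *Areg* and *Hbegf* with 0.77, *Ereg* and *Errfi1* with 0.71 and *Ereg* and *Areg* with 0.70, which describes libraries that share depth, region and treatment. Marker genes gave the makeup of these libraries. Summed over 11 epithelial markers, all of them detected, *Cldn2*KO recovery libraries held 35493 to 58095 CPM and WT recovery libraries 46349 to 79838 CPM. Over 7 markers of stem and cycling epithelium they held 78.5 to 410 CPM against 349 to 576 CPM, and over 12 macrophage and neutrophil markers 52.2 to 116 CPM against 60.3 to 123 CPM. The sum over 9 T and NK cell markers was 24.0 to 38.9 CPM in *Cldn2*KO against 58.0 to 178 CPM in WT recovery, and over 9 enteric neuron and glia markers 68.0 to 70.4 CPM against 41.3 to 57.5 CPM. Over 5 Paneth cell markers, of which 1 and 2 had a mean of at least 1 CPM, the sum was 6.5 to 8.63 CPM against 17.3 to 36.7 CPM, though *Lyz1* among them overlapped. These last 3 lists did not overlap between the genotypes, and their part in the *Errfi1* difference was not tested. Between control and recovery the smooth muscle sum (10 markers) went from 4525 to 11791 CPM in the 6 controls to 1015 to 2564 CPM in the 6 recovery libraries. The fibroblast sum (8 markers) went from 477 to 785 CPM to 195 to 302 CPM, and the macrophage and neutrophil sum from 157 to 632 CPM to 52.2 to 123 CPM. *Ly6g*, 1 of the 12 markers, made up 517 of 632 CPM in WT control replicate 1 and 529 of 569 CPM in *Cldn2*KO control replicate 2. It held 191 to 529 CPM in the 11 libraries high in *Hoxb13* and 0.589 to 80.5 CPM in the other 7. *S100a8*, also on this list, went the other way in *Cldn2*KO mice (0 to 0.108 CPM in controls, 1.07 to 10.4 CPM in recovery). It overlapped in WT mice. In *Cldn2*KO mice alone, recovery libraries also lay above their controls in the epithelial sum (24549 to 29977 CPM in controls) and in the T and NK cell sum (1.28 to 8.45 CPM in controls). They lay below them in the pancreas acinar sum (6 markers, 1 with a mean of at least 1 CPM), from 522 to 629 CPM to 51.2 to 60.8 CPM. In WT mice alone, the plasma and B cell sum (7 markers) lay below its controls, from 881 to 1057 CPM to 374 to 394 CPM, and the Paneth cell sum lay above them, from 4.19 to 12.2 CPM to 17.3 to 36.7 CPM. Of the 5 Paneth cell markers, 1 had a mean of at least 1 CPM in WT controls and 2 in WT recovery. *Lyz1* among them went the other way, from 4.64, 4.12 and 10.8 CPM to 1.14, 2.58 and 0.118 CPM. *Defa17* had no reads in any control or recovery library. The part of these lists in the increase of the ligands was not tested. Between WT controls and WT AOM/DSS, where *Egf* rose, the epithelial sum went from 29463 to 71709 CPM to 14897 to 22162 CPM, smooth muscle from 4525 to 6649 CPM to 674 to 3457 CPM, plasma and B cells from 881 to 1057 CPM to 418 to 721 CPM, neurons and glia from 46.3 to 88.3 CPM to 16.3 to 29.1 CPM, and Paneth cells from 4.19 to 12.2 CPM to 22.3 to 1592 CPM. Between *Cldn2*KO recovery and *Cldn2*KO AOM/DSS, where 4 members fell, the sums that stood apart and were lower in AOM/DSS were those of epithelium (19160 to 24678 CPM), T and NK cells (5.45 to 8.75 CPM) and neurons and glia (24.2 to 56.3 CPM). Those higher in AOM/DSS were the 6 distal Hox genes (647 to 712 CPM against 1.77 to 2.78 CPM in recovery), fibroblast (383 to 811 CPM) and smooth muscle (2775 to 6859 CPM) markers. Macrophage and neutrophil (266 to 353 CPM, with *Ly6g* alone at 191 to 272 CPM) and Paneth cell (9.57 to 599 CPM) markers were also higher. So were pancreas acinar markers (6 genes, 1 with a mean of at least 1 CPM), at 342 to 415 CPM against 51.2 to 60.8 CPM in recovery. Their part in these changes of the members was not tested.

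Around these members, 64 other genes of EGFR signaling were counted in 5 lists, of which 61 were tested (*Erbb4*, *Nrg2* and *Nrg3* did not pass the filter). In WT recovery 1 of the 61 rose and 12 fell, where 10% and 12.2% of all genes did. In *Cldn2*KO recovery 7 rose and 3 fell, where 9.43% and 10% of all genes did. Against these totals of 13 and 10, DESeq2 called 15 and 16 of the 61, where it called 27.1% and 23.9% of all genes, and limma-voom 30 and 25, where it called 47.7% and 33.8%. Among 4 tested ErbB relatives, *Erbb2*, the preferred partner of other ErbB receptors, fell in WT recovery (log2 -0.80 ± 0.24, adjusted p = 0.029), and *Nrg1*, a ligand of ERBB3 and ERBB4, fell in WT (log2 -1.42 ± 0.42, adjusted p = 0.026) and rose in *Cldn2*KO recovery (log2 1.34 ± 0.42, adjusted p = 0.035). *Nrg1* was low throughout, at 1.13 to 5.66 CPM.

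Of 8 genes that release ligands or hold that release back, 2 fell in WT recovery, while 2 rose and 2 fell in *Cldn2*KO recovery. *Rhbdl2*, a membrane protease that can cleave EGF, was at 71.2 to 152 CPM in WT controls and 26.5 to 33.5 CPM in WT recovery, and at 142 to 174 CPM and 32.3 to 48.6 CPM in *Cldn2*KO mice. It fell by 2.03 ± 0.25 on the log2 scale in WT (adjusted p = 0.00035) and by 1.90 ± 0.25 in *Cldn2*KO mice (adjusted p = 0.00033). *Timp3*, an inhibitor of ADAM17, fell by 1.71 ± 0.43 on the log2 scale in WT (adjusted p = 0.012) and by 1.52 ± 0.42 in *Cldn2*KO mice (adjusted p = 0.021). *Rhbdf1* and *Rhbdf2*, which bring ADAM17 to the cell surface, rose in *Cldn2*KO recovery (log2 1.29 ± 0.36 and 1.2 ± 0.24, adjusted p = 0.022 and 0.0033), though *Rhbdf1* was highest of all, at 78.3 CPM, in WT control replicate 2. *Adam17* itself, the main protease for these ligands, held 40.2 to 67.2 CPM across all libraries.

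**Figure D4:**
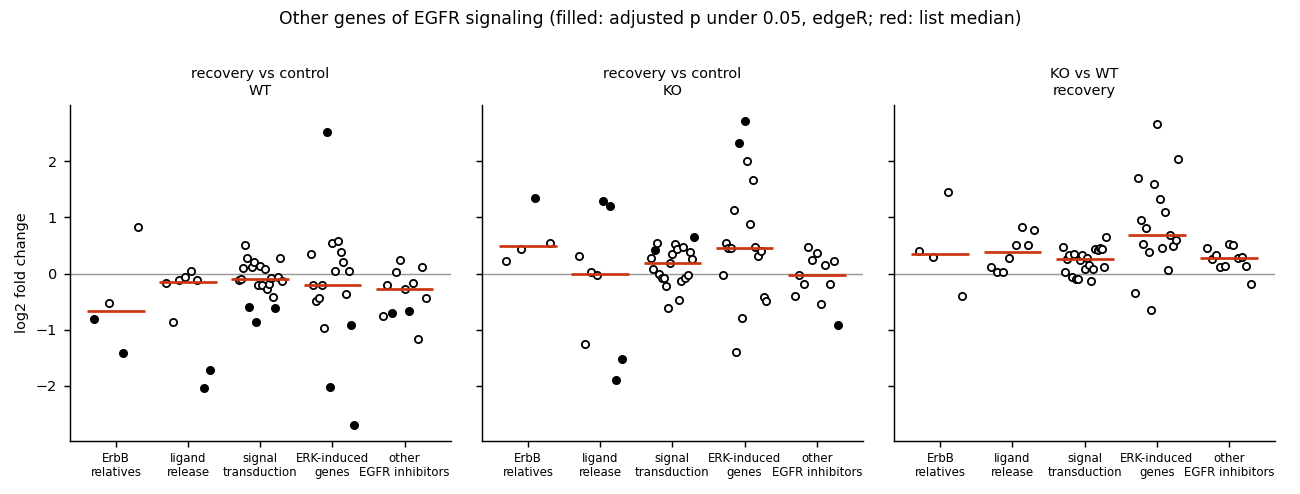
Fitted log2 fold change (vertical axis) of the 61 other tested genes of EGFR signaling, by list (horizontal axis), for recovery in WT, recovery in *Cldn2*KO (KO) and the genotypes in recovery. Filled circles passed an adjusted p of 0.05 by edgeR, and red lines are list medians. The filled circles include *Etv5*, high in both recovery panels, and none is filled between the genotypes.

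Of 17 genes that ERK signaling is known to induce, 1 rose and 3 fell in WT recovery, and 2 rose in *Cldn2*KO recovery. *Etv5*, a transcription factor, was at 5.07 to 6.80 CPM in WT controls and 27.1 to 43.2 CPM in WT recovery, and at 3.72 to 5.11 CPM and 14.8 to 31.3 CPM in *Cldn2*KO mice. It rose in both (log2 2.52 ± 0.57 and 2.33 ± 0.57, adjusted p = 0.0068 and 0.010). *Fos* and *Spry4*, an immediate early gene and a feedback inhibitor of ERK signaling, fell in WT recovery (log2 -2.01 ± 0.64 and -2.70 ± 0.76, adjusted p = 0.035 and 0.021). *Fosl1*, another AP-1 subunit, was at 2.30, 9.88 and 22.6 CPM in *Cldn2*KO recovery against 1.55 to 1.87 CPM in its controls, an increase of log2 2.72 ± 0.78 (adjusted p = 0.023), with its highest value in the library where *Areg* and *Hbegf* were also highest. Of 21 signal transduction genes, 3 fell in WT recovery, among them *Map2k1* (log2 -0.86 ± 0.27), which encodes a kinase of the ERK cascade. In *Cldn2*KO recovery 2 rose, *Sos2* (log2 0.65 ± 0.21) and *Araf* (log2 0.42 ± 0.11). Of 11 other inhibitors of EGFR, 2 fell in WT recovery, *Cblc*, a ubiquitin ligase gene (log2 -0.71 ± 0.15, adjusted p = 0.0048), and *Ptprj* (log2 -0.66 ± 0.20, adjusted p = 0.029), and 1, *Socs5*, fell in *Cldn2*KO recovery (log2 -0.91 ± 0.20, adjusted p = 0.0048). Many of these pathway calls depended on the processing. In *Cldn2*KO recovery *Sos2* was called under 7 of 15 alternatives, *Araf* under 8, *Rhbdf1*, *Timp3* and *Fosl1* under 9, *Nrg1* under 10, and *Rhbdl2*, *Rhbdf2*, *Etv5* and *Socs5* under 14. In WT recovery *Fos* was called under 7, *Erbb2* and *Map2k1* under 9, *Nrg1* under 10, *Spry4* under 11, *Timp3* and *Etv5* under 14, and *Rhbdl2* and *Cblc* under all 15.

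Between the genotypes in recovery, edgeR called none of the 61 genes, 19 had an unadjusted p under 0.05, as 19.9% of all genes did, and DESeq2 and limma-voom called 6 and 10, where they called 7.98% and 11.2% of all genes. Of the 61, 53 had a value above 0 in *Cldn2*KO mice, beside 50.3% of all genes tested. The median over the ERK-induced list was log2 0.68, beside 0.00 over all genes. In AOM/DSS, 4 of the 61 rose and 4 fell against control in WT mice, where 3.81% of all genes rose and 6.58% fell. *Etv5* and *Myc* were among those that rose (log2 1.96 ± 0.56 and 1.57 ± 0.38, adjusted p = 0.039 and 0.025). Those that fell were *Erbb2* (log2 -0.96 ± 0.24, adjusted p = 0.028), *Cblc* (log2 -0.67 ± 0.15, adjusted p = 0.019), *Grb2* (log2 -0.59 ± 0.15, adjusted p = 0.030) and *Mapk3* (log2 -0.68 ± 0.20, adjusted p = 0.042). Of these, *Etv5* and *Mapk3* were called under 6 of 15 alternatives, *Grb2* under 7, *Erbb2* under 9, and *Myc* and *Cblc* under 10. In *Cldn2*KO mice none of the 61 was called against control by edgeR, where 0.195% of all genes were, 17 had an unadjusted p under 0.05, as 15.2% of all genes did, and DESeq2 and limma-voom called 3 and 17, where they called 3.55% and 18.1% of all genes. From recovery to AOM/DSS, 11 of the 61 rose and 0 fell in WT mice, where 12% of all genes rose and 12.4% fell, and 4 rose and 1 fell in *Cldn2*KO mice, where 9.11% rose and 8.66% fell. *Rhbdl2* rose in WT (log2 1.58 ± 0.25, adjusted p = 0.0011) and in *Cldn2*KO mice (log2 1.31 ± 0.25, adjusted p = 0.0032).

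The genes whose log level ran most like a member's over the 18 libraries were ranked by Pearson r among all genes tested. For *Egf* they were *Arsg* (0.92), *C1galt1* (0.91) and *Tm9sf3* (0.91), and *C1galt1*, the synthase of core 1 O-glycans, had group means of 261 and 250 CPM in WT and *Cldn2*KO controls and 577 and 544 CPM in recovery. For *Errfi1* they were *Slc2a1*, the glucose transporter GLUT1 (0.92), *Slc25a25* (0.90) and *Tnfaip1* (0.87). *Slc2a1* had its highest group mean, 250 CPM, in *Cldn2*KO recovery, as *Errfi1* did, against 124 CPM in WT recovery. For *Areg* they were *Arc*, an immediate early gene (0.90), *Ppme1* (0.87) and *Dusp8* (0.82). For *Ereg* they were *Yaf2* (0.88), *Gnb5* (0.87) and *Mfsd12* (0.86), for *Lrig1* they were *Sema5a* (0.93), *St6galnac4* (0.92) and *Golm1* (0.91), and for *Egfr* they were *Tango6* (0.89), *Afp* (0.87) and *Tmem190* (0.87), of which *Afp* and *Tmem190* had group means under 1 CPM. Genes on the opposite strand overlap *Egf*, *Ereg*, *Tgfa*, *Egfr*, *Errfi1* and *Lrig1*. Whether counting used strand is not given in the sources used here, so reads of such pairs may be mixed, but the overlapping genes had few reads of their own, 164 for the antisense gene at *Ereg* against 4693 for *Ereg*, and 2712 for *Slc25a26* against 37052 for *Lrig1*.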

How the data were processed

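Total RNA of 18 mouse colon samples was sequenced by the study on a NovaSeq6000. The deposited values are raw read counts per gene, which the authors made with featureCounts from the Subread package, in 2 lane columns per sample that were summed here. The study's methods name TopHat2 as aligner while the submitters' processing notes name HISAT2, with GRCm38 as the build. Symbols came from GENCODE M21 (47310 of 47729 genes). Members, gene lists, covariates and tests were chosen with earlier results of these data known.

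Counts were scaled by TMM factors and filtered with filterByExpr over the 6 groups, leaving 16937 genes. The quasi-likelihood test of edgeR 4.0.16 (R 4.3.3) was run in 1 fit of all libraries with a mean per group, for 11 contrasts, and p-values were adjusted by Benjamini-Hochberg over all genes tested, called under 0.05. The biological coefficient of variation was 0.315. Replicates differed beyond sampling noise in all 18 pairs. The steps were tested on simulated data. RPKM values used the count table's merged exon length. All members were named, and of each pathway list up to 2 genes higher and 2 lower per contrast, by size of change over the calls in which no library of one group reached the range of the other. For AOM/DSS contrasts examples of these are printed. The values of *Adam17* were added after they were seen. Alternatives were DESeq2 1.42.0, limma-voom 3.58.1 with sample weights, other scalings and filters, covariates for *Xist* or *Hoxb13* above 10 CPM, only the compared groups, and each library left out.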

Additional observations from a re-analysis of the deposited data

How the results depend on the processing

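*Epgn* was removed by the filter on low counts, and few reads stood behind *Egf*. With 3 libraries a group, most calls rested on single libraries. The count of members called in *Cldn2*KO against WT recovery, 1 by edgeR, was 0 with no filter on low counts, 0 with only the compared groups in the fit and 0 with the *Xist* covariate. It was 2 with DESeq2 (7.98% of all genes) and 2 with limma-voom (11.2%). In WT recovery against control, 1 by edgeR, it was 2 with DESeq2 (27.1% of all genes), 4 with limma-voom (47.7%) and 2 with the *Hoxb13* covariate. In *Cldn2*KO recovery, 4 by edgeR, it was 1 with no filter, 1 with the *Xist* covariate, 0 with the *Hoxb13* covariate and 6 with limma-voom (33.8% of all genes). In WT AOM/DSS, 1 by edgeR, it was 0 with no filter, 0 with only the compared groups, 0 with the *Hoxb13* covariate and 2 with limma-voom. From recovery to AOM/DSS in *Cldn2*KO mice, 4 by edgeR, it was 1 with no filter and 0 with the *Hoxb13* covariate. Limma-voom called 2 members where edgeR called 0 in *Cldn2*KO against WT controls (14.9% of all genes), *Cldn2*KO AOM/DSS against control (18.1%), WT AOM/DSS against recovery (35.7%) and the difference between responses to recovery (10.4%). DESeq2 called 2 in the last (5.18%). For the other settings and for libraries left out, the share of all genes is not given here. With each library left out in turn, the counts ran from 0 to 2 in *Cldn2*KO against WT recovery, 1 to 2 in WT recovery, 1 to 5 in *Cldn2*KO recovery, 0 to 0 in WT AOM/DSS, 0 to 1 in *Cldn2*KO AOM/DSS against control, 0 to 1 in WT and 1 to 4 in *Cldn2*KO mice from recovery to AOM/DSS. The *Hoxb13* covariate turned the direction of *Tgfa* in *Cldn2*KO recovery (log2 -0.06), *Egfr* in WT recovery (log2 0.15), and *Lrig1* in WT recovery (log2 0.96), *Cldn2*KO recovery (log2 0.91) and *Cldn2*KO AOM/DSS against recovery (log2 -0.81), a fit in which WT control replicate 2 was the 1 control low in *Hoxb13*, as all recovery libraries were, and the cause was not tested. Of the 440 alternative values of the 28 member comparisons called by edgeR, DESeq2 or limma-voom, 346 kept direction and call. Over the 71 other member comparisons, 77 of 1162 alternative values changed sign and 2 were called. Without TMM factors 56 of 60 group means moved by less than 1 SD. The gene length chosen after seeing the data moved the median share of *Egf* to 1.3% and of *Btc* to 8.1%.

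The control labels share replicate numbers between genotypes. Correlations of same-numbered controls' deviations were 0.157, 0.0023 and 0.079, so they share only a number. With that number as a replicate block, 0 members were called between control genotypes, as without it.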
